A study of Rattus norvegicus with 8 samples.

Results

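The genes described here serve salt and magnesium handling in the distal convoluted tubule, the short cortical segment of the nephron that follows the loop of Henle. 10 symbols were looked up on rat Clariom S arrays: Slc12a3, Kcnj10, Kcnj16, Pvalb, Trpm6, Wnk1, Wnk4, Stk39, Klk1 and Cnnm2. 9 of the 10 were matched to a probe set, against 15037 named genes on the array, and each of the 9 had a single probe set. Trpm6, the apical magnesium channel of the segment, was not analysed here. The choice of genes used no measured value, although it was made with earlier results of these data known.

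Male Sprague-Dawley rats aged 10 weeks gave RNA of renal cortex and outer medulla. The controls are labelled with neither stone induction nor phlorizin. EG stands for 2 weeks of ethylene glycol with alfacalcidol, an oxalate precursor and a vitamin D analogue that together induce calcium stones. The phlorizin group received phlorizin, a plant glucoside that inhibits sodium-glucose cotransport, without stone induction. The EG with phlorizin group received all 3 agents, and the labels do not state the dose or timing of phlorizin. The study asked how inhibition of the glucose transporter SGLT2 relates to stone formation. There was 1 array for each of 4 treatments in each of 2 zones, 8 arrays in all, so no group has a replicate and a difference between 2 arrays has no replicate check. Each array holds kidney tissue from a treated animal or animals, not isolated tubules, and whether several animals were pooled is not given. The zones of a treatment may come from the same kidneys.

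In the distal convoluted tubule, sodium chloride enters from the urine through the cotransporter NCC, encoded by Slc12a3 and blocked by thiazide diuretics. The kinases WNK1 and WNK4 act on SPAK, encoded by Stk39, which phosphorylates and activates NCC. On the blood side, Kir4.1 (Kcnj10) and Kir5.1 (Kcnj16) form a potassium channel that sets the membrane voltage for chloride exit, and loss of Kir4.1 in people causes salt and magnesium wasting. CNNM2 is a basolateral protein needed for normal blood magnesium. Parvalbumin (Pvalb) is a calcium-binding protein used as a marker of the early part of the segment. Tissue kallikrein (Klk1) is a protease made by the connecting tubule and the late distal convoluted tubule and released into the urine. Several of these genes are also used by the thick ascending limb, which lies largely in the outer medulla.

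Values are on the log2 scale, from RMA, so a difference of 1 is a doubling. Array medians lay between 7.39 and 7.58. The 23 background probe sets averaged 5.53 to 5.68 per array, and the highest of them reached 7.64 to 7.98, so a gene below that height is described as within the background range. The cortex EG array stood apart in its spike-in controls: the mean of its poly-A spikes was 6.42, where the rest had 7.46 to 8.23, and that of its hybridisation spikes 10.39, where the rest had 10.65 to 11.33. Setting the hybridisation spikes equal shifted every cortex EG minus control difference by 0.82 and every outer medulla one by 0.15, so cortex differences smaller than that depend on the scaling. The poly-A spikes lay farther apart, at 6.42 in cortex EG and 8.01 in cortex control. Scaling to them was not tried, so 0.82 is no upper limit of that dependence. The label of the genes was checked against their tissue. Slc12a3 lay between 15.45 and 16.29 in the cortex and within the background range on all 4 outer medulla arrays, while Pvalb lay within it on all 8. Of 10 distal convoluted tubule markers, 8 were found and 6 lay above the filter. By limma, 3 of the 6 were called lower in the outer medulla and 2 higher. Over all probe sets the shares were 18.8% and 32.5%. Tfap2b was higher there by 3.67 (SE 0.21, limma adjusted p = 5.4e-05), so the markers did not share 1 zone pattern. Several of them are among the genes described, which makes them no separate check. Sall3, a transcription factor, and Pvalb were at background.

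3 of the genes carry most of the contrasts below: Slc12a3 in the zone comparison, and Kcnj10 and Klk1 in the EG comparison. Their promoters are shown to give the sequence context of genes that differ in zone and treatment pattern. The letters are the 250 bases before the annotated start in RefSeq, build GRCr8, written 5′ to 3′ on the strand of the gene, with motif matches in capitals. Slc12a3 lies at chr19:10675051-10675300 on the minus strand, Kcnj10 at chr13:87334260-87334509 on the plus strand and Klk1 at chr1:103778902-103779151 on the plus strand.
Slc12a3: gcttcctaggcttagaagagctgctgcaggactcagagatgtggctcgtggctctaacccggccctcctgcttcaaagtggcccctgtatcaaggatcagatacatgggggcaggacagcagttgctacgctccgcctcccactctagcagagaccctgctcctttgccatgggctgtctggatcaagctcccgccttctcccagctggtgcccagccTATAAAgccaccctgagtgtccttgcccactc
Kcnj10: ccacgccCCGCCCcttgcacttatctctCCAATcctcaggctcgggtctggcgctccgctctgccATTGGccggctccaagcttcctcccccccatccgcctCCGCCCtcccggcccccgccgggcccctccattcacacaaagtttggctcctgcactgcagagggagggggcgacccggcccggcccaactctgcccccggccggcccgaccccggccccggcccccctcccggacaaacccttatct
Klk1: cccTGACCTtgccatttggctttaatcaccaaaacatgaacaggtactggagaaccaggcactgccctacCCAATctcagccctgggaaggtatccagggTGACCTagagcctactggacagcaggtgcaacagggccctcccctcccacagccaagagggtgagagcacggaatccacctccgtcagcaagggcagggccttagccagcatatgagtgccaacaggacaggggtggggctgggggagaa
The search covered 6 motifs on both strands, with no overlapping matches among them in these 3 promoters. They were the TATA box (TATAAA), the GC box (GGGCGG) and the CCAAT box (CCAAT). The others were half-sites: AGGTCA for nuclear receptors, TGTTCT for steroid receptors and GTTAAT for the factor HNF1. The Slc12a3 promoter holds TATAAA at -32 relative to the start, a motif found in 13.1% of 27457 rat promoters of this length. The Kcnj10 promoter is 72.4% G and C with 20 CG dinucleotides, against medians of 52.0% and 6, and holds GGGCGG at -243 and -148 and CCAAT at -222 and -185. GGGCGG occurs in 32.4% of promoters and CCAAT in 34.3%. The Klk1 promoter holds AGGTCA at -247 and -150, a motif in 13.7% of promoters, and CCAAT at -180. TGTTCT, in 17.1% of promoters, and GTTAAT, in 6.46%, were not among the letters of these 3 windows. A match describes letters and not a bound site.

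**Figure D1:**
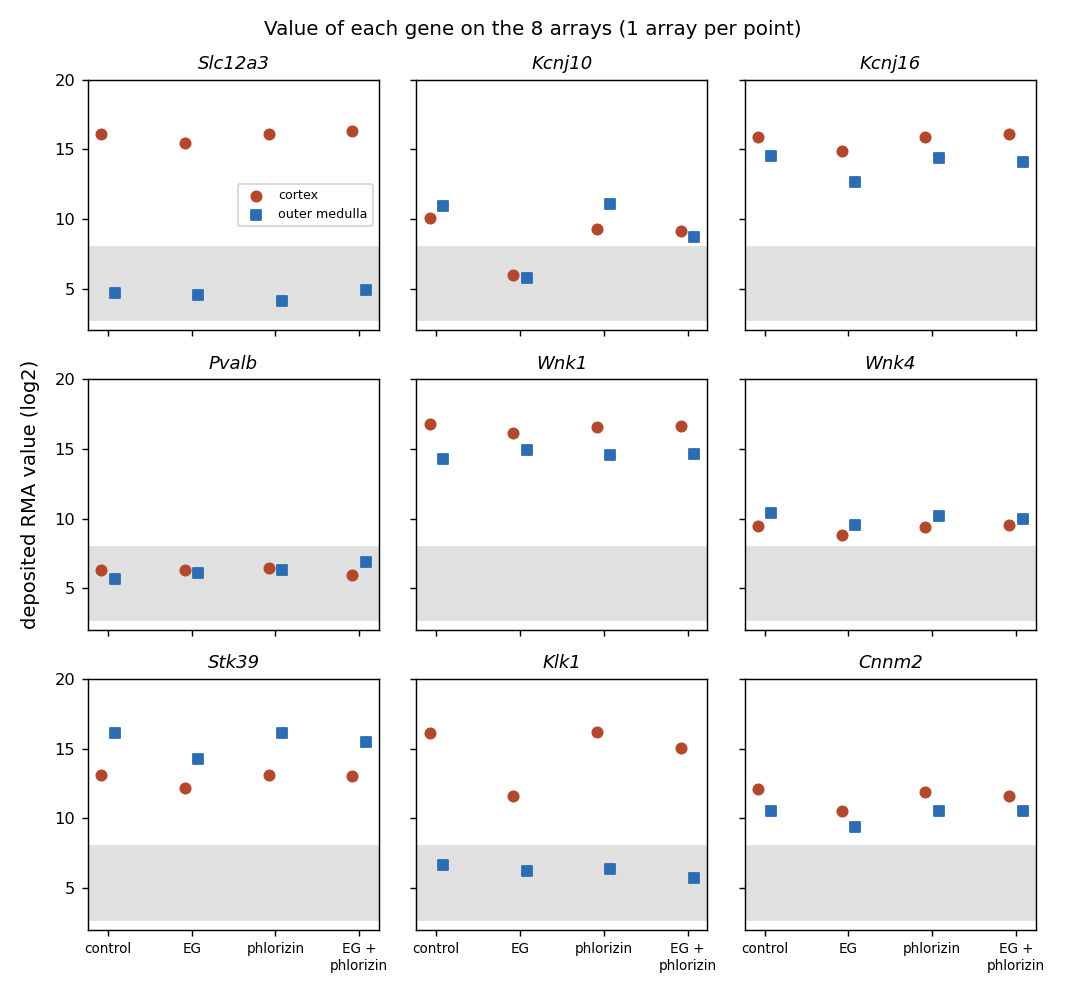
Deposited log2 RMA value of the 9 genes by treatment, 1 array per point, cortex as circles and outer medulla as squares, with the range of the background probe sets on the array in grey. Slc12a3 and Klk1 sit above the grey band in the cortex only, Kcnj10 lies in it on both EG arrays, and Pvalb stays in it throughout.

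The zone comparison asked where each gene is expressed, and its test pairs the zones within each treatment over all 8 arrays. Its residual is the zone by treatment variation, not a spread between replicates. Among the 8 genes above the filter, 5 were lower in the outer medulla than in the cortex and 2 were higher by limma at an adjusted p below 0.05. Over all 13279 probe sets tested, 51.3% were called, 18.8% lower and 32.5% higher, and the median difference was 0.17, against -1.54 for the 8 genes. Each call held when any 1 treatment pair was left out.

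Slc12a3, the cotransporter itself, had the largest zone difference of the 8. In the cortex it read 16.07 in control, 15.45 in EG, 16.07 in phlorizin and 16.29 in EG with phlorizin. In the outer medulla it read 4.65, 4.53, 4.12 and 4.93 in the same order, all within the background range. The zones did not overlap, and the outer medulla was at least 206-fold lower in the EG pair and at least 309-fold lower in each other pair when the top of the background range is taken as its level. The fitted difference was -11.41 (SE 0.19, limma adjusted p = 1.43e-06), which is no bound because the outer medulla holds only background. Klk1 had the same pattern, with a fitted difference of -8.51 (SE 0.72, limma adjusted p = 0.000206). Its outer medulla level was at least 14.3-fold lower in the EG pair and at least 134-fold lower in each other pair.

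The kinases divided by zone. Stk39 was higher in the outer medulla by 2.60 (SE 0.20, limma adjusted p = 0.000147) and Wnk4 by 0.69 (SE 0.15, limma adjusted p = 0.00854). Wnk1 was lower there, with a difference of -1.95 (SE 0.22, limma adjusted p = 0.000663). The Wnk1 probe set is annotated to several transcripts, so the full-length kinase and the short kidney-specific form made in the distal convoluted tubule cannot be separated. Wnk1 levels on the 4 cortex arrays ran from 16.12 to 16.81 and on the outer medulla arrays from 14.28 to 14.91, without overlap.

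The channel genes and Cnnm2 were expressed in both zones. Kcnj16 was lower in the outer medulla by a difference of -1.79 (SE 0.19, limma adjusted p = 0.000484), and Cnnm2 by one of -1.30 (SE 0.15, limma adjusted p = 0.000671). Kcnj10 was not called, at 0.54 (SE 0.37, 95% interval -0.35 to 1.43, limma adjusted p = 0.258). Its zone difference was 0.92 in controls and 1.83 in phlorizin but -0.38 in EG with phlorizin, and both EG arrays were within the background range. Of the partner genes of the Kir4.1 and Kir5.1 channel, Kcnj16 thus passed the zone test and Kcnj10 did not, and the difference between the partners was not tested.

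**Figure D2:**
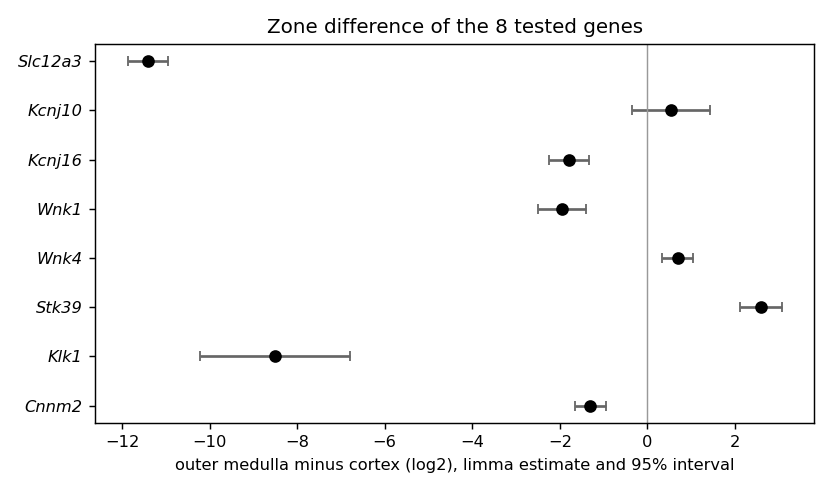
Limma estimate of the outer medulla minus cortex difference (log2) of the 8 tested genes with its 95% interval, from 8 arrays paired by treatment. Stk39 and Wnk4 lie above 0, Kcnj10 spans 0, and the other 5 lie below it, Slc12a3 and Klk1 farthest.

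EG against control was the stone comparison. Without phlorizin, 4 of the 8 genes were lower by at least 1 in the cortex EG array and 4 on its outer medulla counterpart, with none higher by that much. Of all tested probe sets, 12.6% were lower and 9.62% higher by at least 1 in the cortex, against 9.65% lower and 8.52% higher in the outer medulla. The median of the 8 genes was -0.97 in cortex and -1.0 in outer medulla, against -0.07 and -0.05 over all probe sets. Kcnj10, Kcnj16 and Cnnm2 passed that size in both zones, Klk1 in the cortex and Stk39 in the outer medulla. With equal hybridisation spikes, 2 genes reached that size in the cortex, Kcnj10 and Klk1.

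Kcnj10, the pore-forming channel subunit, had the largest outer medulla difference. It read 10.04 in control cortex and 5.98 in EG cortex, and 10.96 and 5.76 in the outer medulla. Both EG values lay in the background range, so the EG level was at least 5.28-fold lower in cortex and at least 9.19-fold lower in outer medulla. In the presence of phlorizin the same contrast was much smaller in the cortex, where Kcnj10 read 9.28 with phlorizin and 9.11 with EG and phlorizin. In the outer medulla it read 11.11 and 8.73, a difference of -2.38. Kcnj10 thus stayed above background on both arrays of EG with phlorizin. Its partner Kcnj16 was well above background on every array. It read 15.86 in control and 14.86 in EG cortex, and 14.51 and 12.64 in the outer medulla, differences of -1.01 and -1.88. The cortex difference of Kcnj16 was -0.19 with equal hybridisation spikes. With phlorizin the EG differences were 0.24 and -0.30.

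Klk1 was above the background range in the cortex alone. There it read 16.13 in control, 11.60 in EG, 16.21 in phlorizin and 15.05 in EG with phlorizin. The EG array was the lowest by more than 3 log2 units, 23.1-fold below control. The contrast with phlorizin was -1.16, the only one of the 8 genes in the cortex to reach a size of 1 there, where 1.54% of probe sets were lower by that much. In the outer medulla all 4 Klk1 values were within the background range. Klk1 has near-identical copies in the rat, so its probes may also read transcripts of the other kallikrein genes.

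The NCC pathway genes differed less. Stk39 read 13.13 in control and 12.20 in EG cortex, and 16.10 and 14.25 in the outer medulla. In the cortex it differed by -0.93, or -0.11 with equal hybridisation spikes. Its outer medulla difference was -1.85 without and -0.66 with phlorizin. Wnk4 differed by -0.66 in cortex and -0.87 in outer medulla, and its cortex difference became 0.16 with equal hybridisation spikes. Wnk1 differed by -0.69 in the cortex, or 0.13 with equal hybridisation spikes, and by 0.63 in the outer medulla. Slc12a3 differed by -0.62 in the cortex, or 0.20 with equal hybridisation spikes. The cotransporter read 15.45 on the cortex EG array, the lowest of its zone, against 16.07 to 16.29 on the others.

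Cnnm2, the magnesium gene, read 12.07 in control and 10.50 in EG cortex, and 10.50 and 9.37 in the outer medulla. In both zones these EG values were the lowest. The differences were -1.58 and -1.13 without phlorizin and -0.28 and 0.03 with it. With equal hybridisation spikes the cortex difference without phlorizin was -0.76. Pvalb values ran from 5.66 to 6.86 within the background range and gave no EG comparison.

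**Figure D3:**
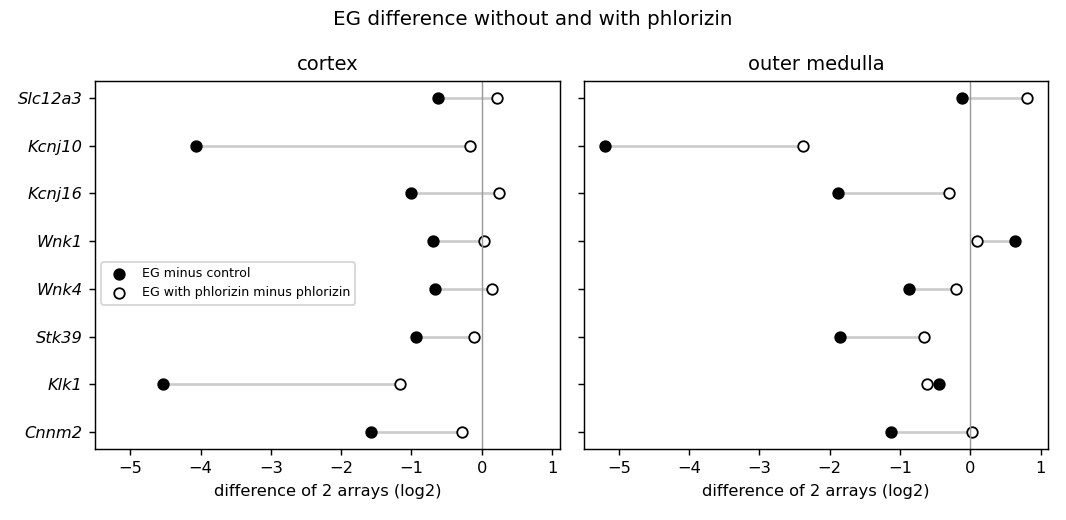
EG difference of the 8 tested genes in each zone, as log2 differences between 2 arrays, without phlorizin (filled) and with phlorizin (open). In the cortex the filled points lie to the left of the open ones for all 8 genes; with equal hybridisation spikes the filled cortex points of Slc12a3, Wnk1 and Wnk4 move above 0.

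The limma test of EG over the zone-mean profiles, adjusting for phlorizin, called none of the 8 genes. It called 0.0377% of all probe sets, 5 of 13279, all higher, while 3 of the 8 genes and 3011 probe sets had an unadjusted p below 0.05. This test has 1 residual degree of freedom, and its residual is the EG by phlorizin difference itself. Klk1 had an estimate of -1.69 (SE 0.39, limma adjusted p = 0.0954), Kcnj10 one of -2.95 (SE 0.72, limma adjusted p = 0.102) and Stk39 one of -0.89 (SE 0.29, limma adjusted p = 0.155). Without the cortex EG array, with the other 7 arrays as samples, the Klk1 estimate was -0.71 and the Kcnj10 estimate -2.72. The Klk1 estimate averages the cortex with outer medulla arrays that all lay within the background range. The Kcnj10 estimate rests in part on arrays of EG alone within that range. Kcnj10 and Klk1 were called when each array was centred on its median, with limma adjusted p = 0.0345 and 0.0344. Over all 8 alternatives the adjusted p ran from 0.00728 to 0.195 for Kcnj10 and from 0.0217 to 0.188 for Klk1. The median estimate of the 8 genes was -0.74, against -0.05 over all probe sets.

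Marker genes of other cells also had other values on the EG arrays. The 7 thick ascending limb markers averaged 12.79 in control and 11.49 in EG cortex, and 15.54 and 14.33 in the outer medulla. In each zone 5 of 7 were lower by at least 1. Of all probe sets, 12.6% in cortex and 9.65% in outer medulla were lower by that much. Cldn19, 1 of the 7, was higher, by 1.30 in cortex and 0.87 in outer medulla. The 5 intercalated cell markers averaged 12.41 and 9.24 in the cortex, all 5 lower by at least 1, and 11.98 and 10.37 in the outer medulla, with 3 of 5 lower. The 4 fibroblast and mural markers averaged 10.91 and 13.63 in the cortex and 11.47 and 14.81 in the outer medulla, and the 4 macrophage markers 7.77 and 10.91, and 9.65 and 11.76. The 3 tested markers of tubule injury averaged 8.17 and 13.88 in the cortex, and 8.64 and 13.22 in the outer medulla. Higher by at least 1 were 4 of 4 fibroblast and mural markers in each zone. For macrophage markers it was 4 of 4 in cortex and 3 of 4 in outer medulla, and for injury markers 2 of 3 and 3 of 3. Of all probe sets, 9.62% in cortex and 8.52% in outer medulla were higher by that much. Vcam1, an injury marker, differed by 0.55 in cortex. Other lists moved less. Of 5 convoluted proximal tubule markers, 0 were lower by at least 1 in cortex, with a median of -0.73. In outer medulla 2 were, both within the background range. Lower by at least 1 in each zone were 2 of 5 endothelium and 1 of 3 principal cell markers. For podocyte markers it was 2 of 2 in cortex and 1 of 2 in outer medulla. In whole tissue, fewer cells of a type and less RNA per cell cannot be told apart. The part of these cell shifts in the values of the 8 genes was not tested.

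The EG by zone comparison asked whether the EG effect differed between cortex and outer medulla. Its test also has 1 residual degree of freedom, with no spread between replicates behind it. It called none of the 8 genes and 0% of all probe sets by limma, with 3 of the 8 and 1640 probe sets at an unadjusted p below 0.05. Kcnj10 had an outer medulla minus cortex difference of the EG effect of -1.67 (SE 0.36, limma adjusted p = 0.26), Klk1 one of 2.31 (SE 0.84, limma adjusted p = 0.386) and Stk39 one of -0.74 (SE 0.28, limma adjusted p = 0.396). With a trended and robust prior Kcnj10 was called at limma adjusted p = 0.0288, and over 6 alternatives its adjusted p ran from 9.33e-05 to 0.284. The Kcnj10 estimate rests on EG arrays within the background range, and the Klk1 estimate on outer medulla arrays within it.

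Phlorizin alone left the 8 genes near their control values. No gene differed by 1 in either zone, against 1.19% of probe sets in cortex and 0.783% in outer medulla. The largest differences were -0.76 for Kcnj10 in the cortex and -0.52 for Slc12a3 in the outer medulla, the latter within the background range. Stk39 differed by 0.01 and 0.00. The limma test of phlorizin is not of phlorizin alone, because it averages the arms with and without EG. It called none of the 8 and 0% of all probe sets. At an unadjusted p below 0.05 were 473 probe sets and none of the 8 genes. Kcnj10 had the largest estimate, 1.37 (SE 0.72, limma adjusted p = 0.994). Its phlorizin differences were -0.76 in cortex and 0.15 in outer medulla without EG. With EG they were 3.13 and 2.97, measured from EG values within the background range.

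Phlorizin on top of EG was the treatment comparison of the study. It shares the EG array with the EG minus control contrast, so a value low on that array enters both. EG with phlorizin was higher than EG by at least 1 for 4 of the 8 genes in cortex and 4 in outer medulla, against 7.29% and 3.35% of all probe sets. None of the 8 was lower by 1, against 6.16% and 4.31%. With equal hybridisation spikes 2 genes in each zone were higher by 1. Klk1 differed by 3.45 in the cortex. Kcnj10 differed by 3.13 in cortex and 2.97 in outer medulla, or by at least 1.47 and 0.97 when the EG level is set to the top of the background range. Kcnj16 differed by 1.27 and 1.43, Cnnm2 by 1.11 and 1.16, and Stk39 by 0.84 and 1.20.

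EG with phlorizin against phlorizin uses no array of EG alone, though it shares the EG with phlorizin array with the contrast just described. In it, Kcnj10 in the outer medulla and Klk1 in the cortex were the genes lower by at least 1, 1 of the 8 in each zone against 1.54% of probe sets in cortex and 2.99% in outer medulla. The median of the 8 genes was -0.04 in cortex and -0.25 in outer medulla, against -0.05 and -0.02 over all probe sets.

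The EG by phlorizin term asked whether the EG effect differed with phlorizin. None of the 8 genes and 0% of probe sets were called by limma, with 5 of the 8 and 1291 probe sets at an unadjusted p below 0.05. These p-values count both zones of a treatment as separate samples, and where zones share animals they are too small. All 8 estimates were above 0, with a median of 1.12 against 0.04 over all probe sets, although Wnk1 became -0.23 with equal hybridisation spikes. The Kcnj10 term was 3.36 (SE 0.74, limma adjusted p = 0.288), the Kcnj16 term 1.41 (SE 0.38, limma adjusted p = 0.351) and the Cnnm2 term 1.23 (SE 0.30, limma adjusted p = 0.316). The Kcnj10 term rests on arrays of EG alone that lay within the background range. Without the cortex EG array the terms of Klk1 and Wnk1 became -0.49 and -0.41.

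Around NCC, 8 of 11 listed genes of the WNK and SPAK network were found and 6 tested. By limma none was called for EG and 1 had an unadjusted p below 0.05, and 4 of the 6 were called higher in the outer medulla, against 32.5% of all probe sets. Of the 6, 2 were lower by at least 1 on the EG array in each zone, against 12.6% and 9.65% of all probe sets, with medians of -0.53 and -0.34. Ppp1r1a, an inhibitor of protein phosphatase 1 that favours NCC phosphorylation, read 11.80 in control and 7.86 in EG cortex, and 15.97 and 13.13 in the outer medulla. The EG value in the cortex was just above the background range. Its differences were -3.94 and -2.84, and -0.82 and -0.99 in the presence of phlorizin. Its EG estimate was -2.15 (SE 0.55, limma adjusted p = 0.108). Cab39l, a scaffold that activates SPAK, differed by -1.12 and -1.43. Sgk1, an aldosterone-induced kinase, differed by -0.64 and -0.35, and Wnk3 was not above the filter.

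Of 7 listed genes for salt exit across the basolateral membrane, 4 were found and tested. 2 of the 4 were lower by at least 1 in each zone, against the same 12.6% and 9.65%, with medians of -1.23 and -1.18. None was called for EG by limma, and 3 had an unadjusted p below 0.05. Bsnd, which encodes barttin, the subunit of the basolateral chloride channels, read 11.24 in control and 8.13 in EG cortex, and 13.04 and 9.96 in the outer medulla. With phlorizin its EG difference was -0.22 in cortex and -1.67 in outer medulla. Its EG estimate was -2.02 (SE 0.49, limma adjusted p = 0.101). Fxyd2, the gamma subunit of the sodium pump, differed by -0.99 and -1.67, and Atp1b1, its beta subunit, by -0.34 and -0.69. Kcnj15, another potassium channel gene of the family of Kcnj10, differed by -1.46 in cortex and 0.07 in outer medulla. Its outer medulla values, 7.85 in control and 7.92 in EG, were just above the background range, so little can be read there.

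Of 16 listed genes for magnesium handling, 14 were found and 12 tested. In the cortex 3 were lower and 2 higher by at least 1, against 12.6% and 9.62% of all probe sets. Of the 2 higher, Slc41a3 read 5.81 in control and 7.61 in EG cortex. It lay within the background range on every array and passed the filter only through the cortex EG array, so its place in that count rests on background. Of the 3 lower, Cnnm1 read 7.87 in control cortex, where the background range reached 7.84. In the outer medulla 2 were lower, against 9.65%, with medians of -0.20 and -0.19. None was called for EG by limma and 2 had an unadjusted p below 0.05, and 5 of the 12 were called higher in the outer medulla, against 32.5% of all probe sets. Egf, the precursor of a growth factor that stimulates magnesium entry through TRPM6, read 16.85 in control and 12.74 in EG cortex. In the outer medulla it read 16.96 and 13.71, so both EG arrays were the lowest of their zone. With phlorizin its EG differences were -0.44 and -0.74. Its EG estimate was -2.13 (SE 0.67, limma adjusted p = 0.142). Cnnm1, a relative of Cnnm2, differed by -1.48 and -1.49, with both EG values in the background range. Cldn19, a tight junction protein of the thick ascending limb, differed by 1.30 and 0.87, in the opposite direction to Egf, and Slc41a2 was not above the filter.

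The tissue kallikrein family had 7 genes besides Klk1, of which 6 were tested. All 6 were called lower in the outer medulla by limma, against 18.8% of all probe sets. Klk1c8 was within the background range on all 8 arrays, and Klk1c9 and Klk1c12 were above it on the cortex phlorizin array alone, so for these 3 the call rests on values at or near background. On the cortex EG array 5 of the 6 were lower by at least 1, against 12.6%, with a median of -3.01. Of these 5, Klk1c9 and Klk1c12 were within the background range in control and EG alike, only Klk1b3, Klk1c3 and Klk1c10 compare a control above it. On the outer medulla EG array none was lower by 1, with a median of -0.03. Klk1b3 read 16.28 in control, 11.88 in EG, 16.46 in phlorizin and 15.23 in EG with phlorizin in the cortex. It lay within the background range on all 4 outer medulla arrays. In the cortex Klk1c3 differed by -4.57 and Klk1c10 by -3.21, its EG value lying in the background range, and Klk1c9 by -2.81, with both values in that range. None was called for EG by limma, and 5 of the 6 had an unadjusted p below 0.05. These probe sets share near-identical transcripts, so they are not independent measurements of Klk1.

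**Figure D4:**
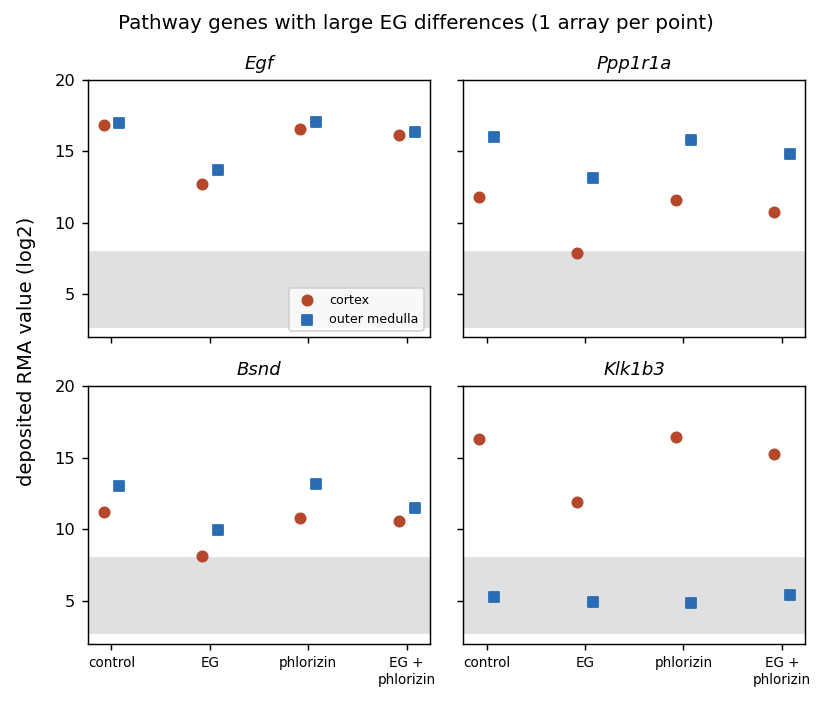
Deposited log2 RMA value of Egf, Ppp1r1a, Bsnd and Klk1b3 by treatment, 1 array per point, cortex as circles and outer medulla as squares, with the background range in grey. Egf, Ppp1r1a and Bsnd were lowest on the EG array of each zone, and Klk1b3 was lowest there in the cortex while staying in the grey band in the outer medulla.

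Genes of the neighbouring connecting tubule gave a contrast in the outer medulla. Of 8 such markers, 5 were lower and 1 higher by at least 1 on the cortex EG array, with a median of -1.13. Klk1, itself among the genes described, is 1 of the 8 and of the 5 lower, so the list is no separate set. S100g, also among the 5 lower, read 7.22 on that array, within the background range. Over all probe sets 12.6% were lower and 9.62% higher there. In the outer medulla 3 were higher and none lower, with a median of 0.27, against 8.52% higher and 9.65% lower. The EG by zone test called none of the 8 after adjustment. It had 5 at an unadjusted p below 0.05, against 1640 of 13279 probe sets. Klk1, with outer medulla values within the background range, was among those 5. Trpv5, the apical calcium channel of this region, read 5.48 in control and 13.76 in EG outer medulla, then 4.49 in phlorizin and 10.99 in EG with phlorizin. In the cortex it read 11.35, 13.76, 11.40 and 13.17. It rose with EG by 4.74 (SE 0.32, limma adjusted p = 0.0293), 1 of the 5 probe sets called. The EG by zone difference of Trpv5 was 5.30 (SE 0.37, limma adjusted p = 0.0989). Both outer medulla values without EG were within the background range, so these estimates rest on a floor. The outer medulla EG differences are at least 5.98 without and 3.19 with phlorizin. Calb1, the cytosolic calcium buffer calbindin, read 15.36 in control and 13.51 in EG cortex, and 5.45 and 8.21 in the outer medulla. That control was within the background range, which makes the difference at least 0.43. Slc8a1, the sodium-calcium exchanger, read 13.05 and 11.90 in the cortex, and 9.23 and 10.87 in the outer medulla. Slc12a3 stayed within the background range in the outer medulla EG array on which Trpv5 read 13.76.

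**Figure D5:**
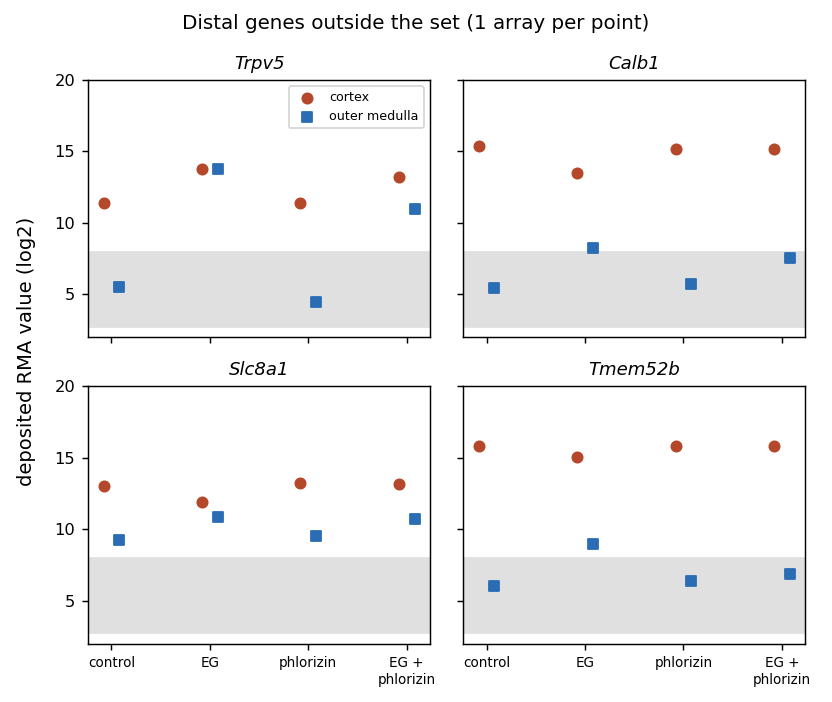
Deposited log2 RMA value of Trpv5, Calb1, Slc8a1 and Tmem52b by treatment, 1 array per point, cortex as circles and outer medulla as squares, with the background range in grey. On the outer medulla EG array all 4 lie above the outer medulla control, and on the cortex EG array Trpv5 alone lies above the cortex control.

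The genes whose pattern was most like that of Slc12a3 and Kcnj10 were ranked by the Pearson correlation of values centred on the zone mean over 8 arrays, among 2000 genes. This is a description with no test, and the points share arrays and the EG contrast. For Slc12a3 the nearest were Lonrf3 (r = 0.962), Cntnap4 (0.873), Pde9a (0.870), Bmp3 (0.868) and Acsm3 (0.867). Its outer medulla values were background, so the ranking reads noise there. For Kcnj10 the nearest were Tmem37 (r = 0.997), Cyb5b (0.996), Adi1 (0.995), Tmem116 (0.995) and Ppif (0.994). Tmem116, for example, read 12.09 in control and 9.49 in EG cortex, and 13.37 and 9.98 in the outer medulla.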

How the data were processed

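RNA of 8 rat kidney samples was measured on Clariom S arrays. The authors deposited RMA values on a log2 scale. RMA is named in the submitters' processing notes without a version, and the scale was read from the range of the values, 2.40 to 19.7. The genes and lists were chosen with earlier results of these data known. Of 24834 probe sets, 1646 controls were left out and 23188 kept, of which 15049 had a gene name. For symbols with several probe sets the one with the highest mean was used.

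The filter kept 13279 probe sets whose maximum over the 8 arrays was at least 7.48, the median over all values. All tests were two-sided with limma 3.58.1 in R 4.3.3 and Benjamini-Hochberg adjustment over all 13279, called at 0.05. The zone was tested on 8 arrays with treatment as a block. EG and phlorizin were tested on 4 zone-mean profiles, EG by zone on 4 zone differences, and EG by phlorizin on 8 arrays with zone as a covariate. The scripts were tested on simulated data. No group has a replicate, so the p-values do not measure the spread between replicate arrays or animals. The residual of the zone and EG by phlorizin tests is the zone by treatment variation. The EG, phlorizin and EG by zone tests have 1 residual degree of freedom before moderation. For EG and phlorizin it is the EG by phlorizin difference. Single-array differences carry no test and were counted at a size of 1. The array number and background limit the precision.

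Pathway genes were named as the up to 4 per list with the largest mean EG difference. Likeness used named, tested genes whose centred values had an SD of at least 0.5. The background range was chosen as a floor after the values were seen. Normalization, filters, priors, thresholds, left-out arrays and equal spike means were tried as alternatives.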

Additional observations from a re-analysis of the deposited data

Results flagged for a closer look

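7 results had opposite directions in the cortex and the outer medulla, with a size of at least 0.5 in each, among the genes described and the pathway, distal convoluted tubule and connecting tubule lists. Only pairs with at least 1 array above the background range in each zone were counted. Each rests on 1 array per zone and treatment, and the opposite directions were not tested on these single-array contrasts. Wnk1 differed between EG and control by -0.69 in cortex and 0.63 in outer medulla, a gap of -1.32, and the EG by zone term fitted over both arms was 0.69 (limma adjusted p = 0.54). With equal hybridisation spikes its cortex difference was 0.13. Tmem52b differed by -0.79 and 2.90, a gap of -3.69 (limma EG by zone adjusted p = 0.386). Its outer medulla control was within the background range, and the outer medulla difference is at least 1.17. Calb1 differed by -1.85 and 2.76, a gap of -4.61 (limma EG by zone adjusted p = 0.253). Its outer medulla control was also within the background range, and the outer medulla difference is at least 0.43. Slc8a1 differed by -1.15 and 1.63, a gap of -2.78 (limma EG by zone adjusted p = 0.26).

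3 more gaps lay between EG with phlorizin and EG, which use the same EG arrays. Kcnj15 differed by 0.77 in cortex and -0.93 in outer medulla, a gap of 1.70. Tmem52b differed by 0.78 and -2.05, a gap of 2.83. Calb1 differed by 1.65 and -0.65, a gap of 2.30. The outer medulla values of all 3 with EG and phlorizin were within the background range. With its top as their level, the outer medulla differences were 0.06 for Kcnj15, so no direction can be read there, -0.98 for Tmem52b and -0.23 for Calb1.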

How the results depend on the processing

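The zone test called the same 7 of 8 genes under all 10 alternatives. EG called 0 of the genes, 2 with each array centred on its median, 1 without a filter on low values, 1 with the 8 arrays as samples and 2 with equal hybridisation spikes. Kcnj10 had adjusted p = 0.0443 with the 8 arrays as samples and an EG estimate of -2.63 (adjusted p = 0.00728) with equal hybridisation spikes by limma, within a range of 0.00728 to 0.195. Klk1 had 0.0483 without a filter and an estimate of -1.37 (adjusted p = 0.0217) with equal hybridisation spikes by limma, within a range of 0.0217 to 0.188. EG by zone called 1 with a trended and robust prior and 2 with equal hybridisation spikes, where the Kcnj10 term was -2.17 and the Klk1 term 1.81. Over all probe sets these settings made 114 and 1005 EG by zone calls, against 0 as reported. Over all probe sets the EG calls ran from 0 with quantile normalization to 5 as reported, 276 with 7 arrays, 633 without a filter, 833 with centred arrays, 1108 with the 8 arrays as samples and 1182 with equal hybridisation spikes. The equal-spike and 7-array alternatives were chosen after seeing the data.

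11 limma estimates changed sign. The EG estimate of Wnk1 became -0.03 with centred arrays. The phlorizin estimates of Klk1, Wnk1 and Slc12a3 became -0.32, -0.12 and -0.05 without the cortex EG array, and those of Wnk1, Wnk4 and Slc12a3 became -0.20, -0.05 and -0.10 with equal hybridisation spikes. The EG by zone term of Cnnm2 became -0.12 and the EG by phlorizin term of Wnk1 -0.23 with equal hybridisation spikes. Without the cortex EG array the EG by phlorizin terms of Klk1 and Wnk1 were -0.49 and -0.41. The cause was not tested.

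Counts of genes at least 1 apart moved with the size required. For EG against control in the cortex, 4 became 8 at a size of 0.5, 2 at a size of 2 and 2 with equal hybridisation spikes, and in the outer medulla 4 became 1 at 2. For EG with phlorizin against phlorizin, 1 became 0 at 2 and 0 with equal hybridisation spikes in the cortex, and 4 at 0.5 in the outer medulla. For EG with phlorizin against EG, 4 became 8, 2 and 2 in the cortex, and 1 at 2 and 2 with equal hybridisation spikes in the outer medulla. For phlorizin against control, 0 became 1 at 0.5 in each zone. Among differences between 2 arrays, 13 changed sign, 11 of them with equal hybridisation spikes, including Slc12a3, Wnk1 and Wnk4 for EG against control in the cortex and Kcnj10, Stk39 and Cnnm2 for EG with phlorizin against phlorizin there. In all, 24 of 504 recomputed single-gene values changed sign.

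The lowest-mean probe set gave no other value, because each gene had 1 probe set. The labels give no replicate numbers, so no block by replicate number was made. With 1 array per group, only differences far above background can be read, and signal near background limits Pvalb, outer medulla Slc12a3 and Klk1, and EG Kcnj10.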

Other observations

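Among the kallikrein genes, Klk1c9 and Klk1c12 were the 2 of 6 tested that were at least 1 higher with phlorizin alone in the cortex. Of all probe sets, 0.67% were at least 1 higher there. The count cannot be weighed against that share, because Klk1c9 passed the filter only through its value on the cortex phlorizin array. The kallikrein probe sets also share near-identical transcripts, so the 2 are not independent. Klk1c9 read 7.36 in control and 8.75 with phlorizin, and Klk1c12 read 7.74 and 8.94, chosen here after their values were seen. Both control values lie within the background range, and each difference rests on 2 arrays with no replicate check. The top of that range on the cortex control array was 7.84, and both differences are smaller when it is taken as the control level. Klk1 itself differed by 0.08 in the same contrast.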
